A study of Mus musculus with 12 samples.

Results

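The CELF and RBFOX proteins are RNA-binding regulators of alternative splicing, and their transcripts were followed across the dorsal hippocampus of mice with and without an Mbnl2 knockout label. The members are the 9 genes Celf1 to Celf6 and Rbfox1 to Rbfox3, taken by their symbols from 24421 genes in the count files, and all 9 passed the filter on low counts that left 15622 genes for testing. RNA sequencing of polyadenylated RNA was done on 12 libraries, each labelled as the dorsal hippocampus of a male mouse aged 4 to 5 months of the strain 129sv/C57BL/6j. There were 4 groups of 3 libraries, namely Mbnl2 KO after training, Mbnl2 WT after training, Mbnl2 KO house controls and Mbnl2 WT house controls. The labels describe neither the Mbnl2 allele nor the training task nor the time between training and dissection, and they do not say how the animals were bred.

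CELF proteins bind GU-rich sequence in transcripts and regulate splicing in the nucleus and RNA stability and translation in the cytoplasm. Muscleblind proteins, of which Mbnl2 is the member most used in brain, oppose CELF1 at many exons, and in myotonic dystrophy muscleblind activity falls while CELF1 rises. RBFOX proteins bind GCATG, act within a larger assembly of splicing regulators (LASR) that also holds HNRNPM, HNRNPH1 and DDX5, and regulate exons of synaptic and channel genes in neurons. Rbfox3 encodes the antigen NeuN, which is used to mark mature neurons.

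The family members share stretches of coding sequence, which bears on how reads can be assigned to one paralog or another; the effect on these counts was not tested. The stretch of 60 coding bases that differs least within each of 3 sets of relatives shows how close they are. In these sequences from GENCODE M21 transcripts (GRCm38), written 5′ to 3′, capitals mark bases that differ from the first sequence of the set.
Rbfox1, coding bases 598 to 657: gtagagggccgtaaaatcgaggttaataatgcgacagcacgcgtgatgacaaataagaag
Rbfox2, coding bases 730 to 789: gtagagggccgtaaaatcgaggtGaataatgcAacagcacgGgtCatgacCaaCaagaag
Rbfox3, coding bases 487 to 546: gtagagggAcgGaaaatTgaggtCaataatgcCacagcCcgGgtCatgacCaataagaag
Celf1, coding bases 1300 to 1359: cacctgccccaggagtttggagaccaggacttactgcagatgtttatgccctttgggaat
Celf2, coding bases 1339 to 1398: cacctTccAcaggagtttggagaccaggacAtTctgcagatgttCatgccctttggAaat
Celf3, coding bases 361 to 420: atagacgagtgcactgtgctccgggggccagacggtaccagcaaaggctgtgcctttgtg
Celf5, coding bases 364 to 423: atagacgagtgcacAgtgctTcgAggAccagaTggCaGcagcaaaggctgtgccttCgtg
Celf6, coding bases 478 to 537: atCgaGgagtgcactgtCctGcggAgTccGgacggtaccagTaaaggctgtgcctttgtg
Rbfox2 differed from Rbfox1 at 6 of the 60 bases and Rbfox3 at 9. Celf2 differed from Celf1 at 6, and Celf5 and Celf6 each differed from Celf3 at 8.

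Over whole coding sequences, the longest identical run between any 2 members of a family was 31 bases, between Celf5 and Celf6. The run was 29 bases for Rbfox1 and Rbfox2 and 23 for Celf1 and Celf2, and the median over the 18 pairs within families was 17 bases. Antisense exons of other genes overlapped Celf2 (Gm26565, 7.58% of the exonic bases of Celf2), Celf3 (Riiad1, 1.35%) and Celf5 (Gm16105, 8.14%). Whether the counting used strand was not stated, so reads of these overlapping exons cannot be told apart.

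The members lie on 8 chromosomes, so they share no locus except that Celf1 and Celf2 are both on chromosome 2 (GENCODE M21 annotation of GRCm38, the build also called mm10). Celf1 spans 90940382 to 91019497 on the plus strand of chromosome 2, and Celf2 spans 6539694 to 7509563 on its minus strand. Celf3 is on chromosome 3 (94478295 to 94492198, plus strand) and Celf4 on chromosome 18 (25477632 to 25754157, minus strand). Celf5 is on chromosome 10 (81459227 to 81482709, minus strand) and Celf6 on chromosome 9 (59577917 to 59607292, plus strand). Rbfox1 is the longest, covering 1526.2 kb of chromosome 16 (5885355 to 7411526, plus strand). Rbfox2 is on chromosome 15 (77078990 to 77307004, minus strand) and Rbfox3 on chromosome 11 (118489762 to 118911597, minus strand).

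Mbnl2 itself was higher in the libraries labelled KO, and the directions below are those of the labels. It had 509, 473 and 542 CPM (counts scaled to library size, by TMM) in KO-labelled trained libraries, against 360.4, 363 and 365 CPM in WT trained libraries. KO-labelled house controls had 488, 470.1 and 454 CPM, against 338, 315 and 324 CPM in WT house controls. The count sums all exons of a gene whose allele is not described, and is no test of the genotype labels.

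The libraries held 19737929 to 27427076 counts, and a member had between 388 and 21107 counts in a library. The lowest counts were those of Celf6. The 12 libraries differed in tissue makeup. Choroid plexus markers summed to 235 to 6682 CPM in the 6 KO-labelled libraries and 161 to 22651 CPM in the 6 WT libraries, and oligodendrocyte markers to 3794 to 14110 CPM in KO-labelled and 2847 to 12781 CPM in WT libraries. Pan-neuronal markers summed to 9752 to 11593 CPM in KO-labelled and 7456 to 10768 CPM in WT libraries. In bulk tissue, fewer cells of a type and less RNA per cell cannot be told apart.

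Rbfox1 was the most abundant member per length and Celf6 the least. In CPM per kb of exon, a level that allows genes of different length to be compared, Rbfox1 had 147 ± 28.2 (SD, n = 12 libraries of all 4 groups) and Celf6 had 6.18 ± 0.722. Neither overlapped its neighbour in the order in any library. Between them lay Celf4 at 67.2 ± 11.6, Rbfox3 at 60.6 ± 10.2 and Celf5 at 41.1 ± 7.09 CPM per kb.

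Rbfox2 at 32.9 ± 4.26 and Celf1 at 32.1 ± 4.46 CPM per kb were not separated, with Rbfox2 above Celf1 in 6 of the 12 libraries. Celf3 followed at 27.1 ± 4.09 and Celf2 at 23.2 ± 3.14 CPM per kb. The ranges of neighbours from Celf4 to Celf2 overlapped, although within a library Celf4 exceeded Rbfox3 in 10 of 12 and each of Rbfox3, Celf5, Celf1 and Celf3 exceeded the next gene down in 12 of 12. The order depended on the gene model. For Celf2 the annotated exons sum to 25.884 kb while the longest transcript has 8856 bases, and per kb of longest transcript it had 67.9 CPM. On that scale Celf3 at 44.0 CPM per kb also stood above Rbfox2 at 38.7 and Celf1 at 34.5. Of 15622 tested genes, the CPM of 8 members lay above the 90th percentile, and Celf6 at 22.4 CPM lay at the 52.4th.

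**Figure D1:**
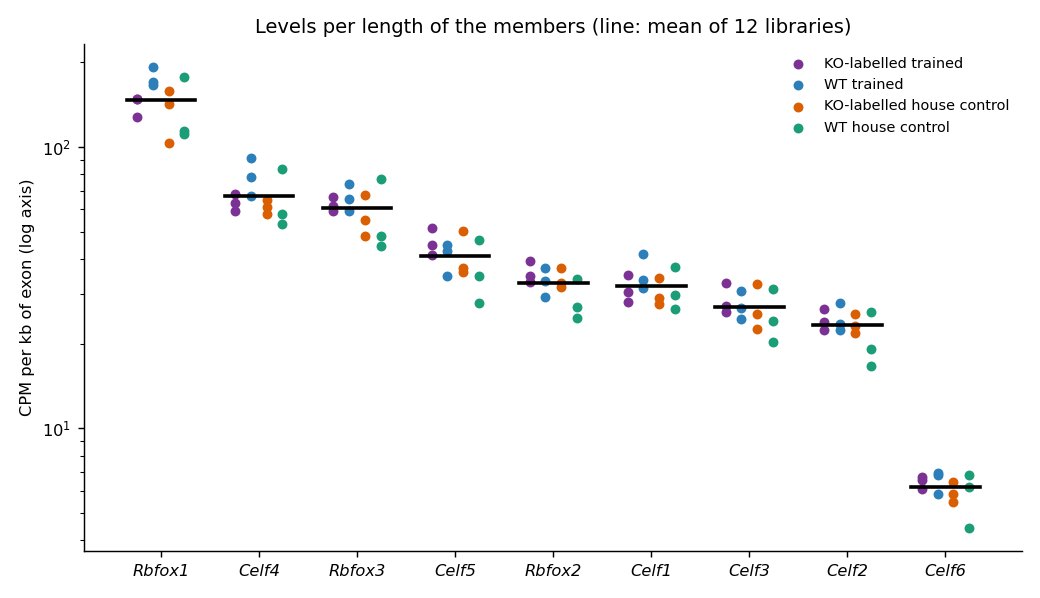
Level of each member in CPM per kb of exon on a log axis, in order of the mean. Each point is 1 library, coloured by group, and the line is the mean of 12 libraries; Rbfox1 at 147 and Celf6 at 6.18 CPM per kb stand clear of their neighbours, and the 7 other members lie between 23.2 and 67.2.

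The genotypes were compared to ask whether transcripts of other splicing regulators differ in mice labelled as lacking Mbnl2. No CELF or RBFOX transcript passed the test of a difference between KO-labelled and WT libraries. In edgeR's quasi-likelihood test over both treatments, 0 of 9 members passed a Benjamini-Hochberg adjusted p of 0.05 (0.576% of all tested genes passed) and 0 of 9 had an unadjusted p under 0.05 (14.4% of genes). DESeq2 called 0 of 9 members and 725 of 15622 genes. It had 0 of 9 members and 2461 genes at an unadjusted p under 0.05. The median log2 fold change of the 9 members was 0.00, beside -0.01 over all tested genes, with 5 members positive and 4 negative. All 9 intervals of 95% for the mean genotype effect lay between 0.723-fold and 1.39-fold. Without WT replicates 2 and 3 and KO replicate 3 of the house controls, 2 of 9 members were positive (-0.38 to 0.07). That fit keeps 1 WT house control library.

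Celf1 and Celf2, the broadly expressed CELF proteins, lay on opposite sides of 0. Celf1 had 296, 257 and 238 CPM in KO-labelled trained libraries, against 284, 351 and 267 CPM in WT trained libraries. KO-labelled house controls had 289.6, 233 and 245 CPM of Celf1, against 316, 253 and 223 CPM in WT house controls. The highest Celf1 value was WT trained replicate 2 and the lowest WT house control replicate 3, and the genotypes overlapped in both treatments. Over both treatments its log2 fold change was -0.12 (SE 0.11, interval -0.36 to 0.12, edgeR quasi-likelihood, Benjamini-Hochberg adjusted p = 0.659).

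Celf2 had 690.0, 578 and 617 CPM in KO-labelled trained libraries, against 608, 721 and 581 CPM in WT trained libraries. In KO-labelled house controls it had 660.2, 566 and 599.5 CPM, against 669, 496 and 432 CPM in WT house controls. WT house control replicates 2 and 3 lay below all 6 KO-labelled libraries, WT trained replicate 2 lay above them, and the other 3 WT libraries lay within their range. The log2 fold change of Celf2 was 0.09 (SE 0.11, interval -0.16 to 0.33, edgeR adjusted p = 0.758 by Benjamini-Hochberg). It was -0.07 without WT replicates 2 and 3 and KO replicate 3 of the house controls, the 3 libraries with the most thalamus marker RNA. WT trained replicate 3, kept in that fit, had 11701 CPM of choroid plexus markers, against 11412 CPM in WT house control replicate 2.

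Celf3 to Celf6 are the relatives enriched in the nervous system. Celf4, a neuronal regulator whose loss causes seizures in mice, had 584, 508 and 544 CPM in KO-labelled trained libraries, against 672, 785 and 575 CPM in WT trained libraries. In house controls it had 554, 525 and 497 CPM with the KO label, against 720.0, 496 and 457 CPM in WT. The 6 KO-labelled values fell in a narrow band from 497 to 584 CPM, and of the WT values 3 lay above that band, 1 in it and 2 below it. Its log2 fold change over both treatments was -0.20 (SE 0.12, interval -0.46 to 0.06, edgeR quasi-likelihood adjusted p = 0.471).

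Celf5 had 344, 298 and 275 CPM in KO-labelled trained libraries, against 299, 285 and 231 CPM in WT trained libraries. KO-labelled house controls had 337, 248 and 239 CPM of Celf5, against 310.4, 232 and 187 CPM in WT house controls. The 2 highest Celf5 values carried the KO label and the 3 lowest were WT, with overlap between. Celf5 averaged 290.1 ± 44.0 CPM in KO-labelled and 257 ± 48.4 CPM in WT libraries (SD, n = 6 each), which is 0.17 on the log2 scale (SE 0.14, edgeR adjusted p = 0.603). Celf3 ran from 123 to 180.4 CPM in KO-labelled libraries and from 111 to 171 CPM in WT libraries, and Celf6 from 19.8 to 24.3 CPM in KO-labelled and from 16.03 to 25.2 CPM in WT libraries. Celf3 averaged 152 ± 22.9 CPM in KO-labelled and 144 ± 23.1 CPM in WT libraries, at 0.08 (SE 0.13, edgeR adjusted p = 0.814). Celf6 averaged 22.4 ± 1.72 CPM in KO-labelled and 22.4 ± 3.47 CPM in WT libraries, at 0.00 (SE 0.10, edgeR adjusted p = 0.996). For these 3 genes the 6 KO-labelled values overlapped the 6 WT values.

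Among the RBFOX genes 2 estimates were negative and 1 positive, and all 3 intervals include 0. Rbfox1, expressed in neurons, heart and muscle, had 654, 565 and 650.3 CPM in KO-labelled trained libraries, against 730.5, 847 and 749 CPM in WT trained libraries. In KO-labelled house controls it had 694, 453 and 624 CPM, against 783, 502 and 489 CPM in WT house controls. All 3 trained WT values lay above all 3 trained KO-labelled values, and the house controls overlapped. Over both treatments the log2 fold change of Rbfox1 was -0.16 (SE 0.14, interval -0.47 to 0.15, edgeR quasi-likelihood adjusted p = 0.643).

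Rbfox2, the broadly expressed member, had 319, 284 and 269 CPM in KO-labelled trained libraries, against 272, 303 and 238 CPM in WT trained libraries. KO-labelled house controls had 301, 267 and 259 CPM of Rbfox2, against 277, 219 and 200.1 CPM in WT house controls. The groups overlapped in both treatments, with the 3 lowest values all in WT libraries. Its log2 fold change was 0.17 (SE 0.10, interval -0.04 to 0.38, edgeR adjusted p = 0.434), which is the smallest adjusted p among the members over both treatments. Rbfox3 had 388, 345 and 360.0 CPM in KO-labelled trained libraries, against 379.9, 429 and 343 CPM in WT trained libraries. KO-labelled house controls had 394, 321 and 281 CPM of Rbfox3, against 447, 281 and 259.8 CPM in WT house controls. The 2 highest and the lowest Rbfox3 values were WT, and the KO-labelled values lay within their range. Rbfox3 averaged 348 ± 42.8 CPM in KO-labelled and 357 ± 76.4 CPM in WT libraries (SD, n = 6 each), at -0.03 (SE 0.14, edgeR adjusted p = 0.939).

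**Figure D2:**
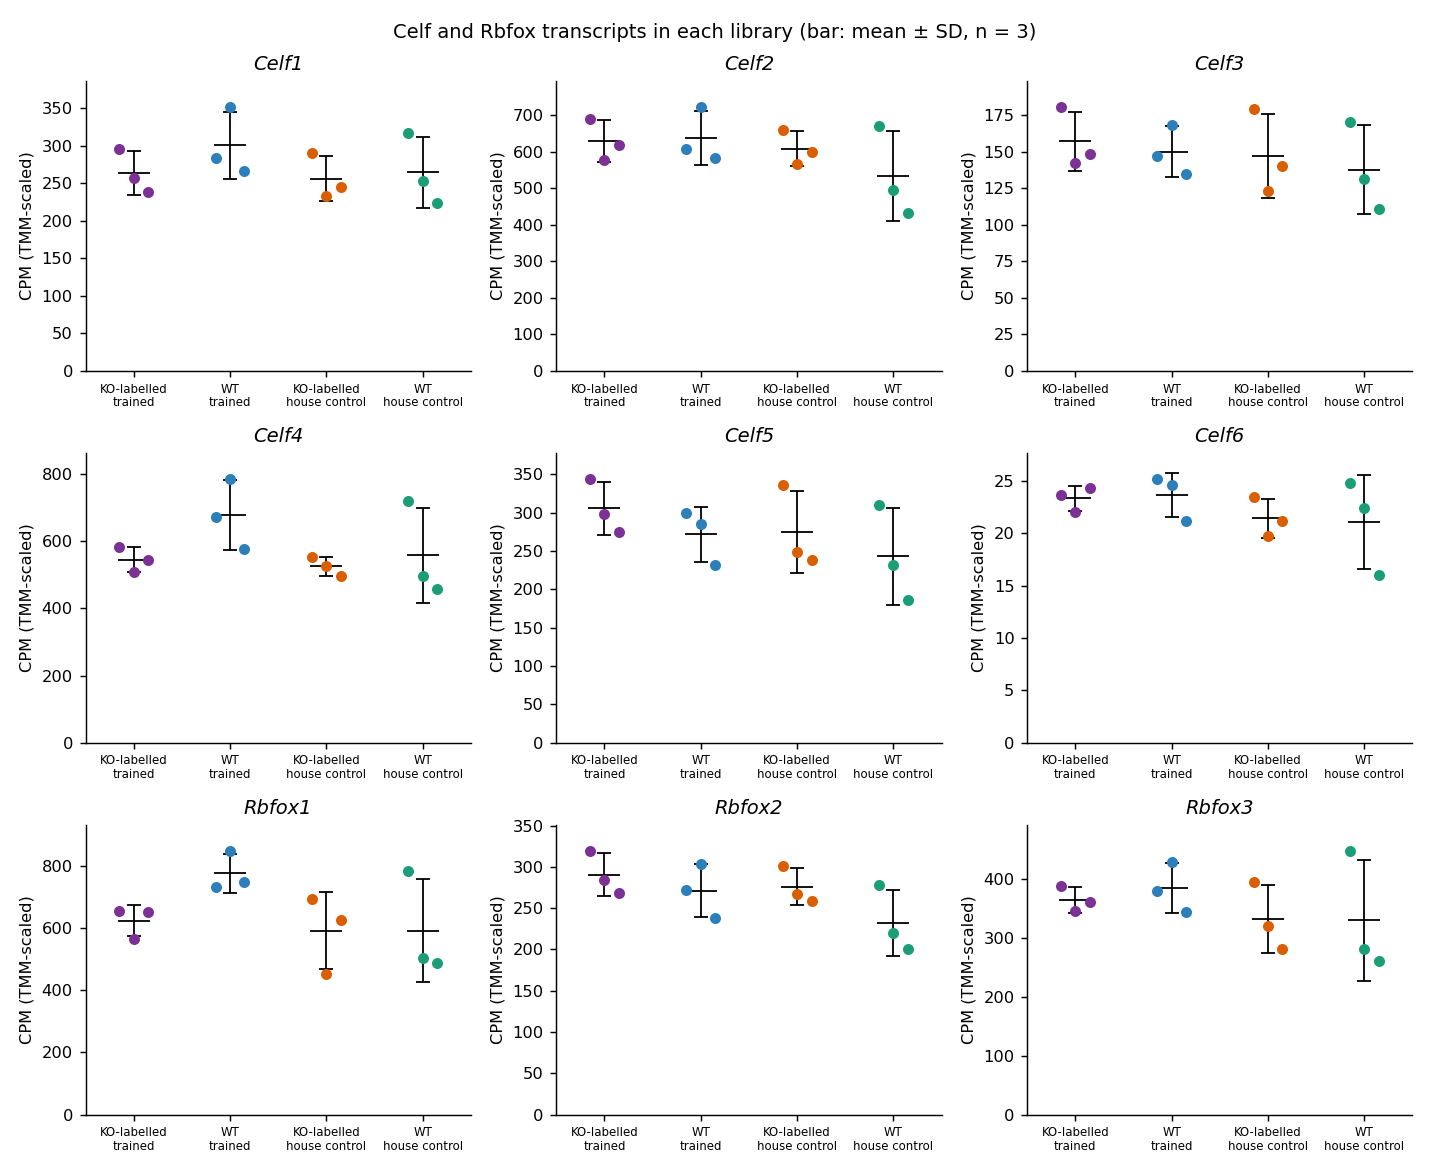
CPM (TMM-scaled) of the 9 members in each library, with KO-labelled left of WT, trained groups left of house controls, and the bar giving the mean ± SD of 3 libraries. WT house control replicate 3 had the lowest value for 8 of the 9 members, and only Rbfox1 in trained mice separated the genotypes, at 565 to 654 CPM with the KO label and 730.5 to 847 CPM in WT.

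Within trained mice alone, 0 of 9 members passed edgeR's adjusted threshold (0.0128% of genes did), and 0 of 9 had an unadjusted p under 0.05 (6.45% of genes). Rbfox1 had a log2 fold change of -0.32 (SE 0.20, interval -0.75 to 0.12, edgeR quasi-likelihood adjusted p = 0.879), Celf4 -0.31 (SE 0.17, interval -0.68 to 0.06, adjusted p = 0.822) and Celf1 -0.19 (SE 0.15, adjusted p = 0.928). Rbfox1 was the only member of 9 whose trained groups did not overlap, where 14.0% of all tested genes did not. The authors' deposited table for trained mice gives Rbfox1 a log2 fold change of -0.32 with an unadjusted p of 0.00391 and an adjusted p of 0.200, and Celf4 -0.32 with 0.0231 and 0.486. It calls 0 of 9 members and 0.834% of its genes.

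Within house controls, 0 of 9 members were called by edgeR (0.0128% of genes) and 0 of 9 had an unadjusted p under 0.05 (10.7% of genes). No member separated the genotypes here, where 13.0% of genes did. The signs were 6 positive and 3 negative, but 9 of 9 positive without WT replicate 1 (0.10 to 0.40). In that fit 2 of 9 members and 3013 of 15827 genes had an unadjusted p under 0.05. With all libraries kept, Rbfox2 had the smallest adjusted p, at 0.25 on the log2 scale (SE 0.13, edgeR quasi-likelihood adjusted p = 0.525). The authors' deposited table for house controls calls 0 of 9 members, at log2 fold changes from -0.08 to 0.25, and 0.558% of its genes. Over both treatments 0 of 9 members had non-overlapping genotypes, against 1.78% of genes.

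**Figure D3:**
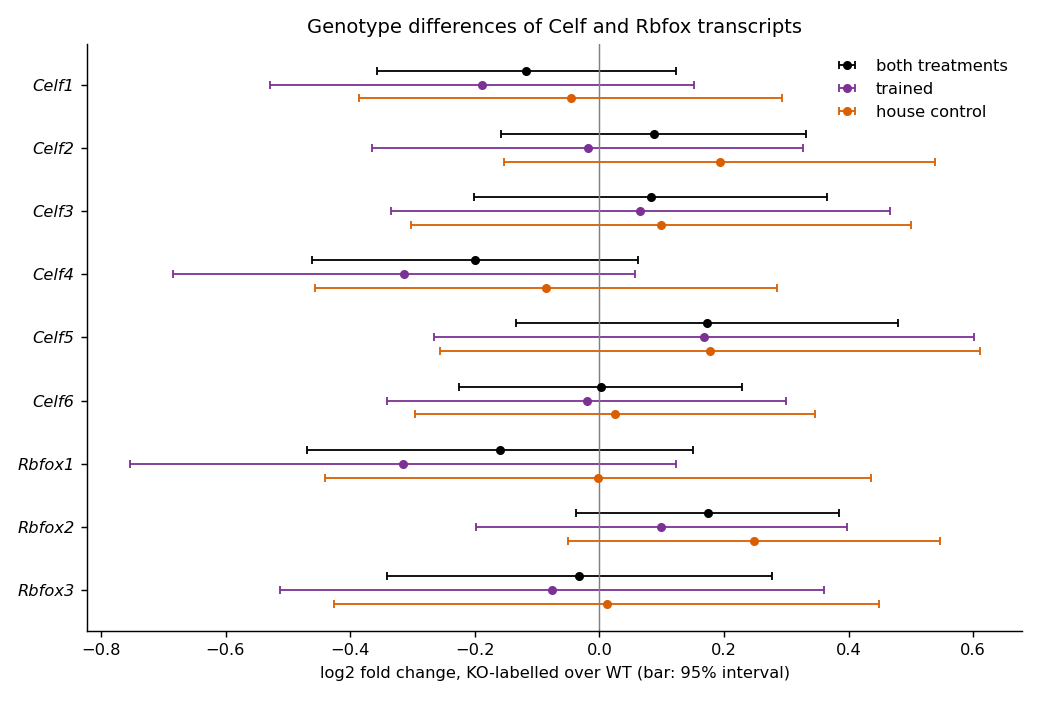
Log2 fold change of KO-labelled over WT for each member with its 95% interval from edgeR, over both treatments, in trained mice and in house controls. All 27 intervals include 0, and the largest estimates in size are -0.32 for Rbfox1 and -0.31 for Celf4 in trained mice.

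Training and house control groups were compared to ask whether the members differ after training. All 9 members had positive log2 fold changes in both genotypes, and none passed a test. In WT mice the 9 values ran from 0.12 to 0.39 (0 of 9 called by edgeR, with 0% of genes called, and 0 of 9 at an unadjusted p under 0.05, against 9.82% of genes). Rbfox1 was at the top with 776 ± 62.9 CPM in trained and 591 ± 166 CPM in house control WT libraries (SD, n = 3 each), a log2 fold change of 0.39 (SE 0.20, edgeR quasi-likelihood adjusted p = 0.502). The authors' deposited table for this comparison gives the members 0.13 to 0.39 and calls 0 of 9, and 0.117% of its genes.

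In KO-labelled mice the training values ran from 0.04 to 0.15 (0 of 9 called, with 0% of genes, and 0 of 9 at an unadjusted p under 0.05, with 3.01% of genes). The authors' deposited table gives 0.05 to 0.16 there and calls 0 of 9, and 0.0716% of its genes. The trained and house control libraries of a genotype overlapped for all members, where 14.8% of genes did not overlap in WT and 7.88% in KO-labelled mice. Over both genotypes the members ran from 0.11 to 0.23 (0 of 9 called by edgeR with 0% of genes, 0 of 9 at an unadjusted p under 0.05 with 11.2%, and 0 of 9 non-overlapping with 0.486%), beside a median of -0.01 over all tested genes.

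Some marker lists of other cell types or regions had a shared sign for training. Of 10 oligodendrocyte markers 0 were positive for training, in WT (median -0.65) and in KO-labelled mice (median -0.54), and 0 were called. They summed to 2847 to 8142 CPM in WT trained libraries, against 3286 to 12781 CPM in WT house controls, and to 3794 to 8977 CPM in KO-labelled trained libraries, against 5637 to 14110 CPM in KO-labelled house controls. Of 12 pan-neuronal markers 12 were positive in WT and 10 in KO-labelled mice, with 0 called. Choroid plexus markers had medians of -0.96 in WT and 0.27 in KO-labelled mice. Of 7 thalamus markers 0 were positive in WT (median -1.66) and in KO-labelled mice (median -1.22). Of 10 endothelial and mural markers 0 were positive in WT and 2 in KO-labelled mice, and of 10 astrocyte markers 1 and 0. No oligodendrocyte or choroid plexus marker was at 0 in any library. In WT trained replicate 2 and KO-labelled house control replicate 2, 1 thalamus marker was at 0. The part of these cell types and regions in the training values was not tested.

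The shared positive sign in WT varied with the house control libraries that were kept. Leaving out 1 library at a time changed 1 of 108 signs of the WT training values. WT house control replicate 3 had the lowest value for 8 of 9 members, and it had 22651 CPM of choroid plexus markers, against 280 CPM in WT house control replicate 1. Without WT replicates 2 and 3 and KO replicate 3 of the house controls, 0 of 9 members were positive for training in WT (-0.22 to -0.01, with 1 WT house control library left) and 3 of 9 over both genotypes. Without WT house control replicate 1, the WT values were 0.30 to 0.65. In that fit 6 of 9 members and 3944 of 15827 genes had an unadjusted p under 0.05. The smallest edgeR adjusted p of a member there was 0.147. In KO-labelled mice the training values were 0.09 to 0.33 without house control replicate 1, and 6 of 9 were positive without house control replicate 2 or without trained replicate 1.

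The interaction asks whether the genotype difference changed with training. No member was called by edgeR (0% of genes) or had an unadjusted p under 0.05 (1.50% of genes). All 9 estimates were negative, from -0.31 for Rbfox1 (SE 0.28, edgeR quasi-likelihood adjusted p = 1.00) to -0.01, although 2 of 9 were positive under upper quartile scaling. Without the 3 house control libraries all 9 were positive, with Rbfox1 at 0.13. Without WT house control replicate 1 they ran from -0.57 to -0.18. In that fit 3 of 9 members and 851 of 15827 genes had an unadjusted p under 0.05. The smallest edgeR adjusted p of a member there was 0.716.

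Levels of the members varied together from library to library. Over the 12 libraries the 36 pairs of members had a median Pearson correlation of log2 CPM of 0.80 (range 0.54 to 0.92), and 0.87 (0.69 to 0.96) after group means were removed. Pairs within a family had a median of 0.80 and pairs between families 0.83. These libraries share depth scaling and tissue makeup, so the values describe the samples and are given without a test.

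Members were high where oligodendrocyte transcripts were low. Correlations of the 9 members with the mean log2 level of 10 oligodendrocyte markers, such as Mbp, ran from -0.89 to -0.69 (Pearson, 12 libraries) and from -0.97 to -0.69 (Spearman), the strongest of 14 marker lists by the median. Without WT house control replicate 1 and WT trained replicate 2, the 2 libraries farthest from the median, they ran from -0.92 to -0.55 over 10 libraries. With 12 pan-neuronal markers they were positive, at 0.35 to 0.84, but from -0.08 to 0.45 without WT house control replicates 2 and 3. With thalamus markers they were -0.86 to -0.34 (-0.93 to -0.15 without the 2 farthest libraries) and with striatum and septum markers -0.80 to -0.40 (-0.91 to -0.68). With choroid plexus markers they were -0.73 to -0.33, and -0.58 to -0.08 without the 2 farthest libraries.

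**Figure D4:**
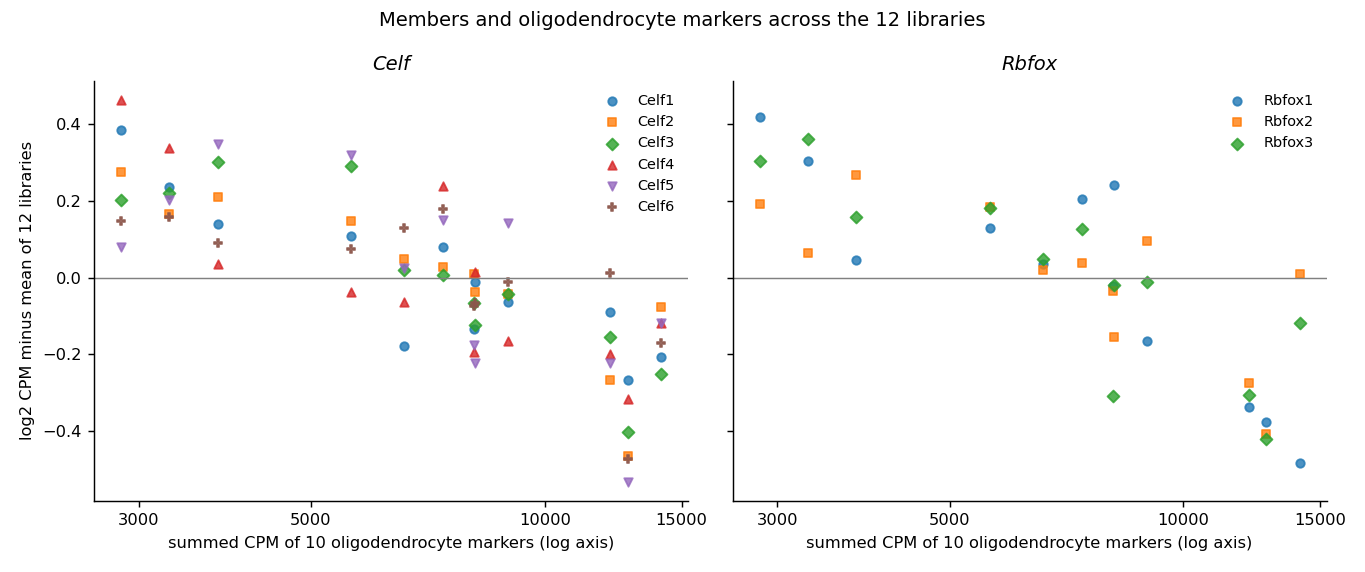
Level of each member relative to its own mean over 12 libraries (log2 CPM, vertical) against the summed CPM of 10 oligodendrocyte markers on a log axis, 1 symbol per member and library, Celf genes left and Rbfox genes right. The libraries with the fewest oligodendrocyte transcripts (WT trained replicate 2 at 2847 CPM and WT house control replicate 1 at 3286 CPM) hold members above their means, and the 3 with 12135 CPM or more hold most members below them.

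The spread of the members was smaller in KO-labelled than in WT libraries. The coefficient of variation over 6 libraries was lower with the KO label for 9 of 9 members, from 5.96% for Celf4, against 20.9% in WT, to 15.2% for Celf5, against 18.8% in WT. Within trained mice alone, with 3 libraries per genotype, it was lower with the KO label for 8 of 9 members and 49.2% of genes. Over all libraries it was lower with the KO label for 59.8% of 14102 genes with a mean of at least 1 CPM. The median ratio of the coefficients, KO-labelled over WT, was 0.574 for the members and 0.889 over those genes. Between the 6 KO-labelled libraries and the 3 WT trained libraries it was lower with the KO label for 5 of 9 members and 39.9% of genes. Choroid plexus markers ranged from 280 to 22651 CPM in WT house controls, and their part in the spread was not tested. The members varied together (median correlation 0.87 after group means were removed), so the counts of members do not rest on 9 independent values.

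A ratio of 2 members within a library compares their levels in the same RNA. The following ratios of CPM were computed after the levels had been seen, are not independent of each other and get no test. Of 36 ratios between 2 members, 5 (13.9%) had KO-labelled and WT values that did not overlap over both treatments. These 5 are described below because they did not overlap, so their separation is the rule that picked them and no further result. Among all pairs of tested genes 1.62% of ratios did not overlap, and 3.13% among pairs of genes at least as abundant as Celf6. Celf6, in none of the 5 ratios, lies at the 52.4th percentile of CPM, and the other members at the 90.3rd or above. Here and below, the share among pairs as abundant as those other members was not computed.

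Celf4 stood lower against several members in KO-labelled libraries. The ratio of Celf4 to Rbfox2 was 1.83, 1.79 and 2.02 in KO-labelled trained libraries, against 2.47, 2.59 and 2.42 in WT trained libraries. House controls had 1.84, 1.96 and 1.92 with the KO label, against 2.60, 2.26 and 2.28 in WT. All 6 KO-labelled ratios lay below all 6 WT ratios, with means of 1.89 ± 0.0903 in KO-labelled and 2.44 ± 0.144 in WT libraries (SD, n = 6 each; log2 difference -0.36).

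The ratio of Celf4 to Celf5 averaged 1.87 ± 0.211 in KO-labelled and 2.40 ± 0.214 in WT libraries (log2 difference -0.36, n = 6 each). The ratio of Celf2 to Celf4 was 1.182, 1.14 and 1.13 in KO-labelled trained libraries, against 0.904, 0.919 and 1.01 in WT trained libraries. House controls had 1.19, 1.08 and 1.21 with the KO label, against 0.929, 0.999 and 0.945 in WT. In CPM, which is not adjusted for gene length, Celf2 exceeded Celf4 in all 6 KO-labelled libraries and in 1 of 6 WT libraries. Per kb of exon Celf4 was above Celf2 in every library, at 53.3 to 91.4 CPM per kb against 16.7 to 27.8. The ratio of Celf2 to Celf4 averaged 1.15 ± 0.0475 in KO-labelled and 0.951 ± 0.0435 in WT libraries (log2 difference 0.28). The genotypes were close for Celf4 to Celf5, where the highest KO-labelled ratio was 2.11 and the lowest WT ratio 2.14.

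Celf1 stood lower against Celf2 and Rbfox2. The ratio of Celf1 to Rbfox2 was 0.927, 0.907 and 0.884 in KO-labelled trained libraries, against 1.04, 1.16 and 1.12 in WT trained libraries. House controls had 0.961, 0.872 and 0.945 with the KO label, against 1.14, 1.15 and 1.12 in WT. In CPM, Celf1 was below Rbfox2 in all 6 KO-labelled libraries and above it in all 6 WT libraries. The ratio of Celf1 to Rbfox2 averaged 0.916 ± 0.0349 in KO-labelled and 1.12 ± 0.0418 in WT libraries (SD, n = 6 each; log2 difference -0.29). The ratio of Celf1 to Celf2 averaged 0.420 ± 0.0222 in KO-labelled and 0.485 ± 0.0237 in WT libraries (log2 difference -0.21). All 5 ratios involve Celf1 or Celf4 and one of Celf2, Celf5 and Rbfox2.

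In trained mice alone 18 of 36 ratios (50.0%) did not overlap between genotypes, where 13.2% of all gene pairs and 17.0% of pairs at least as abundant as Celf6 did not. In house controls alone it was 6 of 36 (16.7%), where 12.5% of all gene pairs and 14.7% of pairs at least as abundant as Celf6 did not. Between trained and house control libraries over both genotypes it was 0 of 36, where 0.413% of gene pairs did not overlap. Leaving out 1 library at a time gave 5 to 8 ratios, with 8 reached without WT house control replicate 2. Beside them stood 1.85% to 2.71% of all gene pairs and 3.39% to 5.15% of pairs at least as abundant as Celf6.

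**Figure D5:**
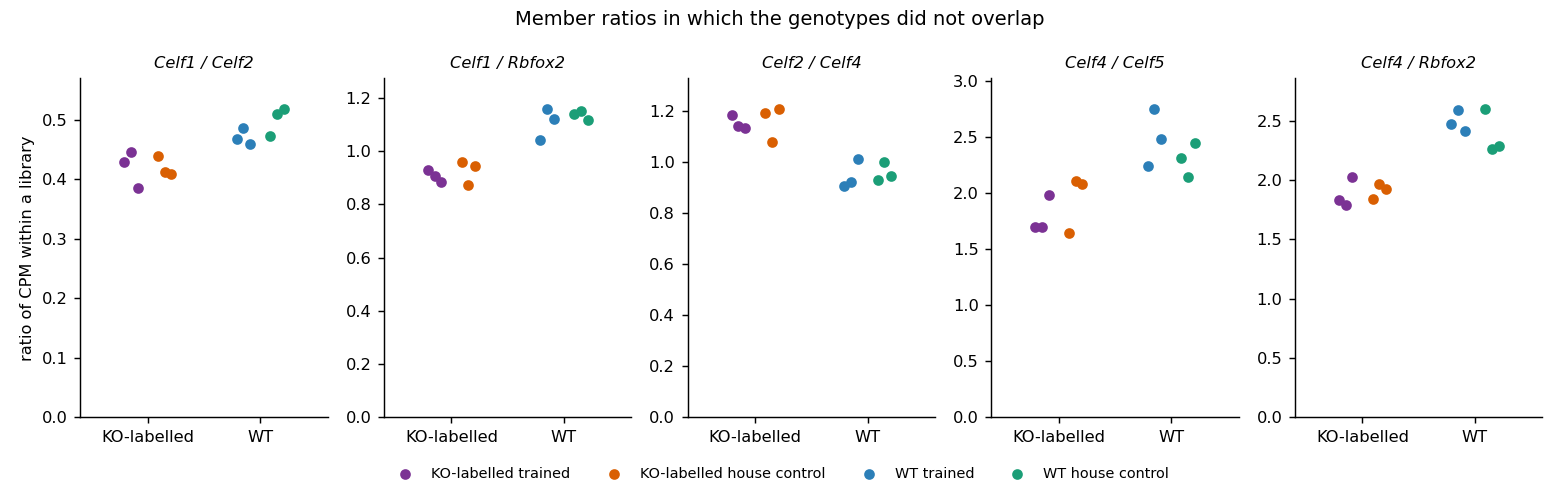
Ratio of CPM between 2 members within each library for the 5 ratios in which KO-labelled (left) and WT (right) libraries did not overlap, coloured by genotype and treatment, each axis from 0. Celf4 to Rbfox2 ran from 1.79 to 2.02 in KO-labelled and from 2.26 to 2.60 in WT libraries.

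Markers of 2 of the 3 hippocampal subfield lists had a shared sign over both treatments, and edgeR called none of them. Over all tested genes, edgeR called 0.576% and gave 14.4% an unadjusted p under 0.05. CA1 pyramidal neuron markers (7 of 7 positive, 4 at an unadjusted p under 0.05) summed to 496 to 876 CPM in KO-labelled and 334 to 678 CPM in WT libraries. Dentate granule neuron markers (10 of 10 negative, 2 at an unadjusted p under 0.05) summed to 402 to 1055 CPM in KO-labelled and 623 to 1482 CPM in WT libraries. Of the 10 tested CA2 and CA3 pyramidal neuron markers 8 were positive and 2 negative, with 0 called. Of the 7 CA1 and 10 dentate markers 0 were at 0 counts in any library. Correlations of the members with the dentate markers ran from 0.24 for Rbfox2 to 0.82 for Celf1 over 12 libraries. For the other genes of the 5 ratios the value was 0.70 for Celf4, 0.49 for Celf2 and 0.34 for Celf5. For the members in none of these ratios it was 0.77 for Rbfox1, 0.65 for Celf3, 0.59 for Rbfox3 and 0.52 for Celf6. With the CA1 markers the correlations ran from -0.22 for Celf4 to 0.63 for Celf5. The part of subfield makeup in the ratios was not tested.

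Other splicing regulators were taken from a list of 22 genes. Over both treatments 1 was called higher in KO-labelled libraries and 0 lower by edgeR, and 5 and 2 had an unadjusted p under 0.05, with a median log2 fold change of 0.01. Of all tested genes, edgeR called 0.576% and gave 14.4% an unadjusted p under 0.05. The called gene of the list was Mbnl2 (0.51, SE 0.05, edgeR quasi-likelihood adjusted p = 0.00626). Khdrbs3, the STAR-family protein SLM2, averaged 206 ± 19.3 CPM in KO-labelled and 166 ± 28.5 CPM in WT libraries (SD, n = 6 each; 0.32, SE 0.08, edgeR adjusted p = 0.107). Mbnl1, the paralog of Mbnl2, averaged 107 ± 7.29 CPM in KO-labelled and 89.6 ± 11.3 CPM in WT libraries (0.26, SE 0.08, edgeR adjusted p = 0.160). Elavl3, a neuronal Hu protein, averaged 329.96 ± 18.9 CPM in KO-labelled and 290.1 ± 19.7 CPM in WT libraries (0.19, SE 0.06, edgeR adjusted p = 0.200). The highest Mbnl3 level was 1.45 CPM.

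The LASR list held 8 partners of RBFOX proteins, of which 0 were called over both treatments, with 1 higher and 2 lower at an unadjusted p under 0.05 and a median log2 fold change of -0.04. The edgeR shares over all tested genes were 0.576% called and 14.4% at an unadjusted p under 0.05. Hnrnpm, whose protein binds GU-rich sequence, averaged 121 ± 8.09 CPM in KO-labelled and 139 ± 10.3 CPM in WT libraries (SD, n = 6 each; -0.21, SE 0.06, edgeR quasi-likelihood adjusted p = 0.171). Hnrnph1 stood at -0.18 on the log2 scale (SE 0.08, edgeR, Benjamini-Hochberg adjusted p = 0.307). The RNA helicase gene Ddx5 stood at -0.13 (SE 0.07, edgeR, Benjamini-Hochberg adjusted p = 0.403).

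The genes whose levels followed each member most closely over the 12 libraries were found by Pearson correlation of log2 CPM. For Celf2 it was Cplx2, a complexin of synaptic vesicle release (r = 0.98, Spearman 1.00). For Rbfox1 it was Nptx1, a neuronal pentraxin (0.98), and for Celf5 it was Dlg4, which encodes the postsynaptic scaffold PSD-95 (0.98). Bcl11b, a transcription factor gene, was closest to Celf3 (0.98), Fbxl16 to Rbfox3 (0.97) and Trim46, which organises microtubules of the proximal axon, to Rbfox2 (0.98). Smg1, a kinase of nonsense-mediated decay, was closest to Celf1 (0.97) and Ogfod1 to Celf4 (0.96). For Celf6 it was Fbxo48 (0.93), which averaged only 0.611 CPM.

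Over the closest 3 genes of every member, correlations ran from 0.92 to 0.98, and from 0.91 to 0.99 after group means were removed. Many other genes were nearly as close, with 312 genes above 0.9 for Celf2 and 12 for Celf6.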

How the data were processed

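Gene-level expression was analysed in 12 libraries. The authors deposited raw read counts by gene symbol. They also deposited 4 comparison tables, which per the file headers give a mean signal (normalized count), a log2 fold change with SE, a score (the test statistic), and a raw and an adjusted p-value. The submitters' processing notes list HTSeq 0.9.1, TopHat2 2.1.1, Bowtie2 2.3.4.2, DESeq2 1.18.1, cutadapt 1.18 and the build mm10. Their settings and roles, strand included, are not given in the sources used here.

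Counts were fitted in R 4.3.3 with edgeR 4.0.16 (filterByExpr with minimum count 10 and minimum total 15, TMM scaling, robust quasi-likelihood, 4 group means, 12 libraries, 8 residual degrees of freedom). Benjamini-Hochberg adjustment ran over 15622 genes, with a threshold of 0.05. CPM use TMM-scaled library sizes, where 3 counts are 0.105 to 0.154 CPM (counting error only). Intervals are at 95%. Lengths are the union of exons in GENCODE M21, available for 96.1% of tested genes. Groups come from the labels. Each library title carries its own number, and no label says whether libraries are separate animals; p-values measure the spread between these libraries. Title numbers fall into 2 series, of 8 and 4 libraries. The fit was tested on simulated counts with 200 changed genes.

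Named genes were all 9 members, Mbnl1 to Mbnl3, up to 4 genes per list of regulators with the smallest p over both treatments and any member of those lists that was called, and the 3 most correlated genes per member, of which the closest is named; 1 gene that the rule picks is not reported here. The members and lists were chosen with earlier results of these data known, and subfield and tissue markers were named for the same reason. Alternatives were DESeq2 1.42.0, other scalings and filters, fits of the compared groups, the title series as a covariate or the first alone, libraries left out and transcript lengths. Ratios, coefficients of variation and their alternatives were added after the data were seen. Python 3.11.15, pandas 2.3.3, numpy 2.4.6 and matplotlib 3.10.9 were used.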

Additional observations from a re-analysis of the deposited data

How the results depend on the processing

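Over 22 alternatives and 7 comparisons, 1359 member values gave 0 calls; the smallest adjusted p was 0.147 and 31 values had an unadjusted p under 0.05, while 112 changed sign. Without WT replicates 2 and 3 and KO replicate 3 of the house controls (the most thalamus RNA; WT trained replicate 3, also rich in choroid plexus RNA, was kept), the mean genotype log2 fold change was -0.0744 for Celf2, -0.0562 for Celf3 and -0.11 for Celf6, the WT training value of Rbfox1 was -0.0111 and its interaction 0.13. Celf6 was also -0.0148 under upper quartile scaling and -0.13 in the first title series, and Rbfox3 was 0.0091 without the KO libraries rich in striatum, septum and neocortex transcripts. Leaving out 1 library at a time gave -0.0003 to 0.17 for Celf3, -0.0708 to 0.0677 for Celf6 and -0.10 to 0.11 for Rbfox3. The causes were not tested.

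Per kb of longest transcript, levels were 211 for Rbfox1, 144 for Celf4, 112 for Rbfox3, 62.3 for Celf5, 38.7 for Rbfox2, 44.0 for Celf3, 34.5 for Celf1, 67.9 for Celf2 and 7.25 for Celf6, which follows from the shorter lengths. Non-overlapping member ratios numbered 10 of 36 in the first series (5.69% of all gene pairs), 12 without the 3 house control libraries (4.96%), 18 in trained mice alone (13.2%) and 5 to 8 with 1 library left out (1.85% to 2.71%). In the same order, the shares of pairs at least as abundant as Celf6 were 8.2%, 7.87%, 17.0% and 3.39% to 5.15%.

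Over all genes, the 90 genotype calls over both treatments became 725 with DESeq2, 166 with the title series as covariate, 26 without the KO libraries rich in striatum, septum and neocortex transcripts, 2 in the first series, 1 without the 3 house controls, 59 with no filter and 8 to 268 with 1 library left out; the 2 calls in house controls became 202 with DESeq2 and 4 with the covariate, and the 2 in trained mice became 106 and 4.

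No paired analysis was possible because the replicate numbers were given by accession order and so link no animals across groups. The fit without the 3 house control libraries keeps 1 WT house control and assumes that it varies like the other groups.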
